A study of Drosophila melanogaster with 9 samples.

Results

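Heads of flies that had lived alone for 7 days were compared with heads of flies that had lived alone for 1 day. The comparison used the 3 libraries of each duration, picked by the treatment and its number of days in the labels, which are 6 of the 9 libraries of the series. The remaining 3, from flies kept in a group for 7 days, entered the model as a further group, and their values are given last. The flies, all Drosophila melanogaster, shared 1 background (wild type Canton-S w1118, iso1CJ). Every library held whole heads of 200 flies, taken at ZT0.5-2, that is 0.5 to 2 hours after lights on. The question is how heads differ after long and after short isolation. The labels give neither sex nor age, so the length of time alone cannot be told apart from age at collection. Nothing in them says whether the samples of a group came from separate rearings, so the p-values measure the spread between these samples, which may be technical.

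Flies are gregarious, and flies housed alone are known to differ from grouped flies in sleep, feeding and fighting. A fly head holds brain, eyes, muscle and cuticle, and also a layer of fat body, the counterpart of liver and fat tissue. Fat body stores triglyceride and glycogen, runs much of purine and amino acid metabolism and secretes stress proteins, storage proteins and antimicrobial peptides into the blood. In such whole-head RNA, fewer cells of a type and less RNA per cell cannot be told apart.

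Library totals were 47381611 to 50771319 counts after 7 days alone, 39698143 to 41404688 after 1 day alone and 50742967 to 53514747 in the group, so the 1-day libraries were all shallower than the others. Abundance is given in CPM, which is a gene's count scaled to a common library total after TMM normalization. Markers of gut and male tract summed to 972, 3.81 and 1928 CPM in replicates 1 to 3 of 7 days alone, to 1361, 1324 and 7.36 CPM in those of 1 day alone and to 5.39, 835 and 3.86 CPM in those of the group. Body tissue was thus present in 2 of 3 libraries of either duration and in 1 of 3 group libraries, and it went with a difference of 0.5 log2 units or more in 2977 of 12963 tested genes. Of those 2977 genes, 8 were called between the durations, against 599 of all 12963 (4.62%). Each duration held libraries with and without body tissue, and the main fit had no term for it. Such genes vary within a duration, so the low count does not show that body tissue left the comparison untouched. Replicate 3 of 1 day alone stood apart in another way: its genes of the respiratory chain summed to 23800 CPM, against 16570 to 19560 in the other 8 libraries, and those of the cytosolic ribosome to 54480 CPM, against 40570 to 44500. Mitochondrial transcripts took 2.48% to 5.24% of counts after 7 days alone, 3.42% to 7.37% after 1 day alone and 3.61% to 4.67% in the group. Head markers were present throughout: neuronal genes summed to 2890 to 3165 CPM after 7 days alone, 2826 to 3356 CPM after 1 day alone and 3102 to 3292 CPM in the group, and photoreceptor genes to 83000 to 90490, 72280 to 83810 and 92310 to 92640 CPM.

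Between 7 days and 1 day alone, 599 of 12963 tested genes differed at an adjusted p under 0.05 (edgeR quasi-likelihood test, Benjamini-Hochberg adjustment), 4.62% of them. Of these, 403 were higher at 7 days (3.11%) and 196 lower (1.51%). The excess of higher genes turned round without replicate 3 of 1 day alone (548 higher, 619 lower) and without replicate 1 of 1 day alone (160 higher, 181 lower). Most changes were small: 320 of the 599 were of 0.5 log2 units or less, 50 genes were at least 1 log2 unit higher and 38 at least 1 lower. In all 599 the 3 libraries of one duration lay wholly above or below the 3 of the other, which was also so for 21.6% of all tested genes. The median log2 fold change over all genes was 0.04. Changes are given from here on as log2 fold changes of 7 days over 1 day alone. Of the 599 genes, 180 were in at least 1 of 64 gene lists, not all of which are described here. Counts of list members that rose or fell are to be read against the 3.11% and 1.51% of all tested genes. The plot of gene lists shows how many members of 22 of them passed.

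**Figure D1:**
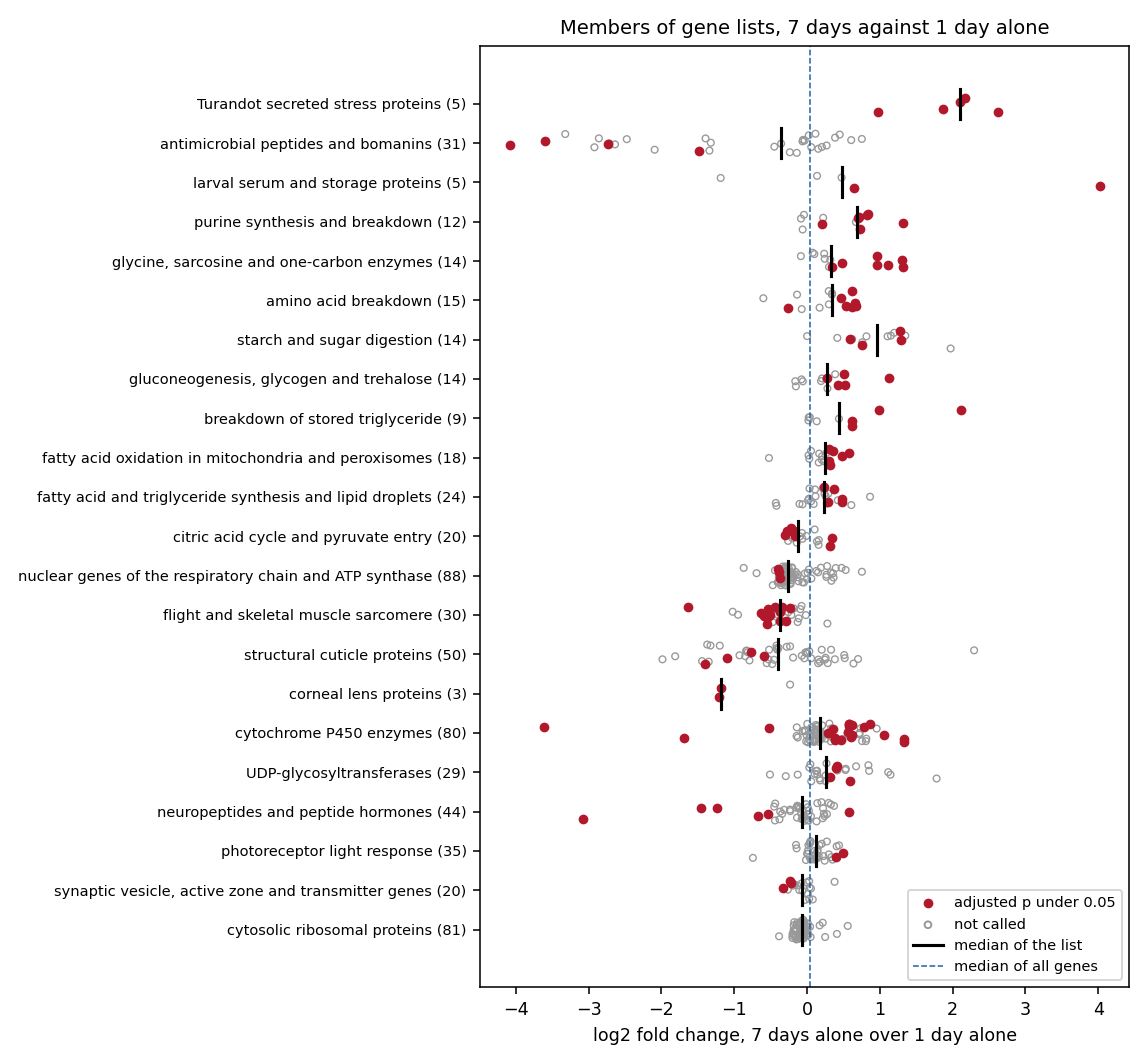
Log2 fold changes of 7 days alone over 1 day alone (horizontal axis) for the tested members of 22 gene lists, with the number tested in brackets. Filled points passed an adjusted p of 0.05, open points did not, black bars are list medians and the dashed line is the median of all genes at 0.04. Turandot genes lie to the right with a median of 2.09, and sarcomere genes to the left with a median of -0.37.

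These counts rest on few libraries. Without 1 library at a time, the number of called genes ran between 72 without replicate 3 of 7 days alone (0.551% of the genes tested) and 1167 without replicate 3 of 1 day alone (8.85%), with 101 without replicate 2 of 7 days alone (0.765%). Of the 599 genes, 63 passed in each of these 9 fits. Without replicate 3 of 7 days alone 46 genes were higher and 26 lower, and without replicate 3 of 1 day alone 548 and 619. List counts with 1 library left out, given below, are to be read against these totals. In a fit of only the 6 libraries compared 32 genes passed (0.25%), among them tobi, CG5966, Act88F, TotA, TotC, TotX, Lsp1alpha, retinin, ple, serp, verm, atk, ry, Cyp4e3, Cyp6a23 and CG12256. DESeq2 called 11.6% of the genes (793 higher, 712 lower) and limma-voom 4.61%. With a smooth trend of abundance with gene length removed in every library, 488 genes were higher and 405 lower (6.89% in all), so the share of higher calls was 54.6% in place of 67.3%.

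Several enzymes of purine and one-carbon metabolism were higher after 7 days alone. Of 12 tested genes of purine synthesis and breakdown 7 rose (58.3%) and none fell, with a median log2 fold change of 0.69. Of 14 genes of glycine, sarcosine and one-carbon metabolism 7 rose (50%) and none fell, with a median of 0.33. Over all tested genes 3.11% rose and 1.51% fell. Gart (FBgn0000053, on chromosome 2L from 7014623 to 7023898) encodes an enzyme that carries out several steps of purine synthesis. It had 468, 649 and 492 CPM after 7 days alone, against 204, 230.0 and 208 CPM after 1 day alone and 337, 312 and 368 CPM in the group, a log2 fold change of 1.32 (SE 0.132, adjusted p = 0.00408, edgeR). Every 7-day library lay above every group library, and these lay above the 1-day libraries. Gart overlaps CG43322 on the other strand, and whether counting used the strand is not given in the sources used here, which holds for each overlap named from here on.

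Other enzymes of the purine route rose by less. Prat2, which starts the route, rose by 0.70 (SE 0.111), Adsl by 0.84, Pfas, which overlaps CG31643 on the other strand, by 0.82 and Paics by 0.71. Xanthine dehydrogenase, encoded by ry and acting in purine breakdown, had 122, 138 and 130.1 CPM after 7 days alone, against 79.2, 80.95 and 75.9 CPM after 1 day alone and 96.6, 90.7 and 103 CPM in the group, a log2 fold change of 0.72 (SE 0.062, adjusted p = 0.00285, edgeR). Both ends of the route, synthesis and breakdown, were thus among the genes that rose.

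Sarcosine dehydrogenase, encoded by Sardh, had 45.7, 54.9 and 45.9 CPM after 7 days alone, against 21, 21.96 and 25.04 CPM after 1 day alone and 24.8, 21.9 and 23.7 CPM in the group, a log2 fold change of 1.11 (SE 0.1, adjusted p = 0.00308, edgeR). Here the 1-day and group libraries overlapped, and the 7-day libraries lay above both. The folate enzyme gene pug had 649, 820.1 and 679 CPM after 7 days alone, against 346, 360.4 and 392 CPM after 1 day alone and 493, 501 and 546 CPM in the group, a log2 fold change of 0.97 (adjusted p = 0.00408, edgeR). It shares exon sequence with CG14683 on its own strand. Serine hydroxymethyltransferase (Shmt, which moves a carbon unit from serine to folate and overlaps CG12236 on the other strand) rose by 0.96, the glycine decarboxylase gene CG3999 by 1.32, the adenosylhomocysteinase gene Ahcy by 0.48 and Cth, of cysteine synthesis, by 0.35. Replicate 2 was the highest 7-day library for Gart, Sardh, pug, Shmt and CG3999 alike.

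Of 15 genes of amino acid breakdown 6 rose (40%) and 1 fell (6.67%), with a median of 0.34, against 3.11% and 1.51% of all tested genes. Aspartate aminotransferases rose in the cytosol and in mitochondria: Got1 by 0.54 (adjusted p = 0.00426, edgeR) and Got2, which overlaps CG7289 on the other strand, by 0.67. Phenylalanine hydroxylase, encoded by Hn, had 739, 837 and 732 CPM after 7 days alone, against 475, 456 and 569 CPM after 1 day alone and 695, 663 and 735 CPM in the group, a log2 fold change of 0.62 (SE 0.098, adjusted p = 0.0167, edgeR). The homogentisate dioxygenase gene hgo, further down the same route, rose by 0.62, and P5cr-2, of proline synthesis and overlapping another gene on the other strand, by 0.66. Glutamate dehydrogenase (Gdh) fell by 0.26 on the log2 scale, with 535, 531 and 524 CPM after 7 days alone, against 617, 631 and 659.5 CPM after 1 day alone and 526, 517 and 536 CPM in the group. With 1 library left out at a time, 2 (without replicate 2 or 3 of 7 days alone) to 8 (without replicate 3 of 1 day alone) of the purine genes rose, 2 (without replicate 3 of 7 days alone) to 8 (without replicate 3 of 1 day alone) of the one-carbon genes and 1 (without replicate 2 or 3 of 7 days alone) to 9 (without replicate 3 of 1 day alone) of the amino acid genes. Gart, ry, Sardh, pug and P5cr-2 passed in all 9 of these fits.

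**Figure D2:**
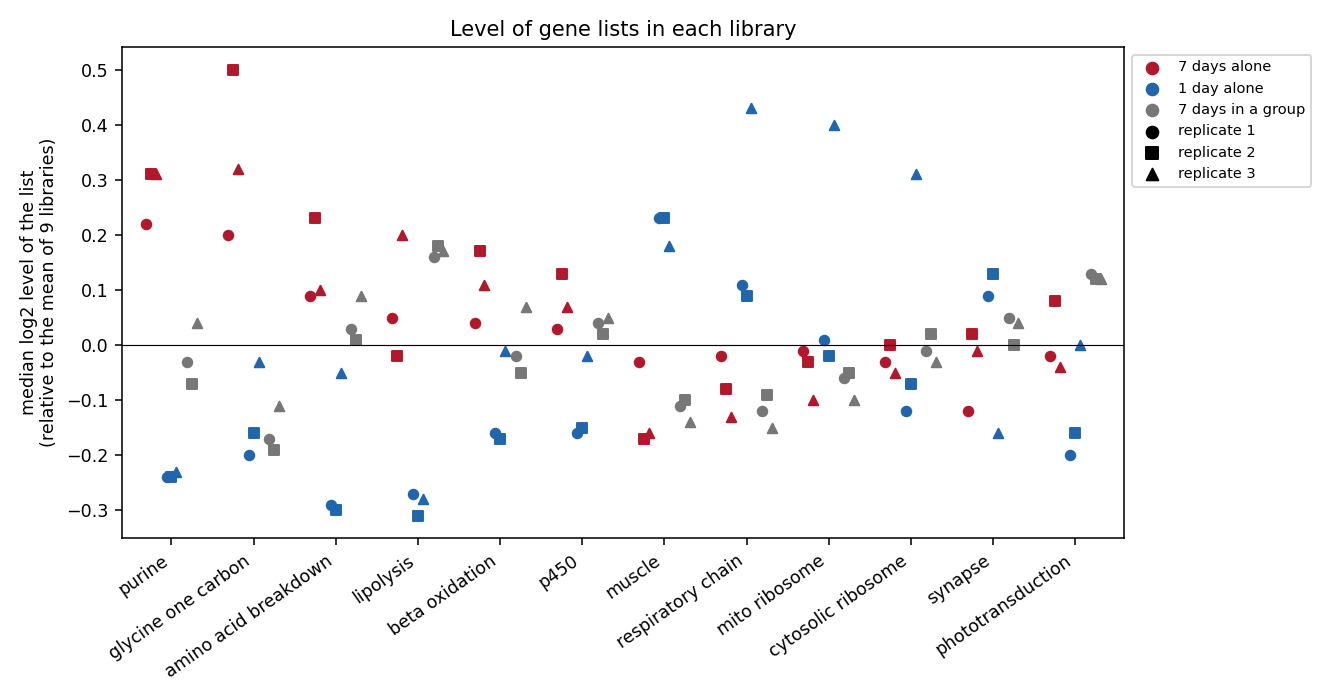
Median log2 level of 12 gene lists in each library, relative to the mean of the 9 libraries (vertical axis, log2 units, with 0.5 CPM added). Red, blue and grey symbols are 7 days alone, 1 day alone and 7 days in a group, and the shape gives the replicate. Purine genes sit at 0.22 to 0.31 after 7 days alone and at -0.24 to -0.23 after 1 day alone, and replicate 3 of 1 day alone (blue triangles) stands above the other libraries for respiratory chain, mitochondrial ribosome and cytosolic ribosome genes.

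Some genes of stored fat were higher after 7 days alone, and most members of these lists did not pass. Of 9 tested genes of triglyceride breakdown 4 rose (44.4%) and none fell (median log2 fold change 0.44). Of 18 genes of fatty acid oxidation 6 rose (33.3%) and none fell (median 0.25). Of 24 genes that make fatty acids and triglyceride or coat lipid droplets 5 rose (20.8%) and none fell (median 0.23). Over all tested genes 3.11% rose and 1.51% fell. The triglyceride lipase bmm (FBgn0036449, on chromosome 3L from 14776496 to 14786412), the fly counterpart of adipose triglyceride lipase, had 167, 220.3 and 183 CPM after 7 days alone, against 94.97, 91.1 and 100.3 CPM after 1 day alone and 149, 146 and 151 CPM in the group, a log2 fold change of 0.99 (SE 0.0954, adjusted p = 0.00359, edgeR). The lipase gene CG5966 had 259, 217 and 263 CPM after 7 days alone, against 71.7, 48.3 and 50.3 CPM after 1 day alone and 202, 184 and 221 CPM in the group, a log2 fold change of 2.12 (SE 0.168, adjusted p = 0.00233, edgeR). For both lipases the 1-day libraries lay below all other libraries. Lip4 rose by 0.61 and dob, a relative of bmm, by 0.61.

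The medium-chain acyl-CoA dehydrogenase Mcad, which removes hydrogen in the cycle of fatty acid oxidation, had 392, 426 and 392 CPM after 7 days alone, against 267, 261 and 287 CPM after 1 day alone and 364, 369 and 386 CPM in the group, a log2 fold change of 0.57 (SE 0.0515, adjusted p = 0.00308, edgeR). It overlaps CG7457 on the other strand. The thiolase yip2 rose by 0.48, the acyl-CoA dehydrogenase CG3902, which overlaps NijB on the other strand, by 0.36, CPT2, a carnitine palmitoyltransferase of fatty acid entry into mitochondria, by 0.30, and the peroxisomal oxidases Acox3 and Acox57D-p by 0.30 and 0.31. On the synthesis side the perilipin Lsd-2, which coats lipid droplets, rose by 0.48 (adjusted p = 0.0105, edgeR), the ATP citrate lyase ATPCL (overlapped on the other strand by CG8320 and Tmem131) by 0.48, malic enzyme (Men) by 0.38, the lipin Lpin by 0.29 and Zw, the entry enzyme of the pentose phosphate route, by 0.24. Mtp, which loads lipid onto lipoproteins, rose by 0.47. With 1 library left out, the genes that rose numbered 2 to 4 for triglyceride breakdown, 0 (without replicate 3 of 7 days alone) to 12 (without replicate 3 of 1 day alone) for oxidation and 0 (without replicate 2 or 3 of 7 days alone) to 2 for synthesis. With only the 6 libraries compared 1 gene of breakdown and 0 of oxidation and synthesis rose. The genes bmm and CG5966 passed in all 9 fits. Of the 5 synthesis genes that rose, Lsd-2 passed in 7 fits, ATPCL in 6 and Men, Lpin and Zw in 0. Lpin also did not pass with the length trend removed (adjusted p = 0.157, edgeR).

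Genes of sugar release, transport and storage were among those that rose, and fewer of the glycolytic route. Of 14 tested genes of starch and sugar digestion 4 rose (28.6%, median log2 fold change 0.96). Of 14 genes of gluconeogenesis, glycogen and trehalose 5 rose (35.7%, median 0.27) and of 14 glycolysis genes 2 rose (14.3%, median -0.07). None of these fell, and over all tested genes 3.11% rose and 1.51% fell. The alpha-glucosidase tobi (FBgn0261575, on chromosome 3R from 25344761 to 25346921), a known target of insulin signalling in the fat body, had 229, 248 and 235 CPM after 7 days alone, against 103, 96.7 and 90.2 CPM after 1 day alone and 130.0, 144 and 129 CPM in the group, a log2 fold change of 1.30 (SE 0.0638, adjusted p = 0.000743, edgeR). Each 7-day library was above each group library and each group library above each 1-day library. Replicate 2 of 7 days alone, which lacked body tissue, was the highest of all. It overlaps rha on the other strand.

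The amylase gene Amy-d had 130.4, 109 and 161 CPM after 7 days alone, against 56.4, 65.1 and 44.3 CPM after 1 day alone and 88.1, 105 and 100 CPM in the group (log2 fold change 1.27, adjusted p = 0.0125, edgeR). Its reads are uncertain, since the neighbouring copy Amy-p is near-identical. Mal-B1 and Mal-B2, maltases, rose by 0.76 and 0.59. The median of 0.96 of this list moved with body tissue, with list medians per library of 1.01, -1.0 and 1.72 log2 units after 7 days alone, against 0.04, 0.86 and -1.32 after 1 day alone, and the part of body tissue in that median was not tested. UGP, which makes UDP-glucose for glycogen, had 532, 589 and 570.2 CPM after 7 days alone, against 409, 389 and 395 CPM after 1 day alone and 536, 509 and 514 CPM in the group (log2 fold change 0.50, adjusted p = 0.00358, edgeR), and overlaps CG32040 and PGRP-LF on the other strand. The gluconeogenic genes Pepck2 and fbp rose by 1.12 and 0.52, the trehalose transporter Tret1-1 by 0.43 and the glycogen branching enzyme AGBE by 0.27 (adjusted p = 0.0503 with limma-voom). In glycolysis Pgi rose by 0.30 and the hexokinase Hex-C by 0.40. Leaving out 1 library gave 1 (without replicate 1 of 1 day alone) to 4 rises for the digestion genes and 0 (without replicate 2 of 7 days alone) to 7 (without replicate 3 of 1 day alone) for the gluconeogenic list, and tobi passed in all 9 fits. Glycolysis genes that rose numbered 0 in 8 of these fits. Without replicate 3 of 1 day alone 2 of them rose and 1 fell. With only the 6 libraries compared 0 glycolysis genes rose.

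Many sarcomere genes were lower after 7 days alone. Of 30 tested genes of flight and skeletal muscle 15 fell (50%, against 1.51% of all tested genes) and none rose, with a median log2 fold change of -0.37. The flight muscle actin Act88F (FBgn0000047, on chromosome 3R from 15439969 to 15442177) had 8.38, 8.77 and 9.18 CPM after 7 days alone, against 25.6, 26.8 and 29.6 CPM after 1 day alone and 15.3, 12.8 and 11.3 CPM in the group, a log2 fold change of -1.64 (SE 0.118, adjusted p = 0.00189, edgeR). The 3 sets of libraries did not overlap, and the 7-day libraries were the lowest. The myosin light chain Mlc1 had 122, 108 and 111 CPM after 7 days alone, against 173, 169 and 189 CPM after 1 day alone and 126, 129 and 119 CPM in the group (log2 fold change -0.64, adjusted p = 0.00359, edgeR). The actin Act57B changed by -0.59, the Z-disc proteins Mlp84B and Zasp66 by -0.54 and -0.37 and paramyosin (Prm) by -0.38. For these genes the 7-day and group libraries lay close together below the 1-day libraries. Actin genes resemble each other, so reads could have been divided between them. Without replicate 2 or 3 of 7 days alone 5 sarcomere genes fell, and without replicate 3 of 1 day alone 16 did. Act88F, Mlc1 and Mlp84B passed in all 9 fits.

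Genes of the citric acid cycle and the respiratory chain that passed were mostly lower after 7 days alone. Of 20 genes of the citric acid cycle and pyruvate entry 2 rose (10%) and 6 fell (30%; median -0.12), and of 88 nuclear genes of the respiratory chain and ATP synthase none rose and 3 fell (3.41%; median -0.27), against 3.11% and 1.51% of all tested genes. The alpha and beta subunits of the isocitrate dehydrogenase of the cycle fell, Idh3a to 246, 256 and 242 CPM after 7 days alone, against 303, 303 and 299 CPM after 1 day alone and 241, 246 and 248 CPM in the group (log2 fold change -0.28, adjusted p = 0.0038, edgeR), and Idh3b by 0.22 on the log2 scale. Citrate synthase (kdn) changed by -0.30 and the pyruvate dehydrogenase subunit muc by -0.18. In the opposite direction the NADP-dependent Idh rose by 0.32 and the succinyl-CoA ligase subunit ScsbetaA, which overlaps CG11964 on the other strand, by 0.34.

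The respiratory chain genes that fell were ATPsynC, a ring subunit of ATP synthase, at -0.37, the ADP/ATP carrier sesB, which shares exons with Ant2, at -0.38 and UQCR-Q, of complex III, at -0.40. ATPsynC had 1255, 1248 and 1238 CPM after 7 days alone, against 1581, 1539.6 and 1722 CPM after 1 day alone and 1296, 1209.6 and 1242 CPM in the group. The respiratory chain count depended on the libraries: 24 genes fell without replicate 3 of 1 day alone, the library in which they were highest, and 0 fell without replicate 2 or 3 of 7 days alone, replicate 2 of 1 day alone or replicate 2 of the group. The count over all genes moved as well: 619 of 13187 fell without replicate 3 of 1 day alone and 26 of 13076 without replicate 3 of 7 days alone. For the citric acid cycle, 0 fell without replicate 3 of 7 days alone and 7 without replicate 3 of 1 day alone. None of 12 tested protein genes of the mitochondrial genome passed (edgeR; 0 also with DESeq2 and limma-voom, and 0 at an unadjusted p under 0.05). Their median was -0.52, with summed levels of 9951, 18110 and 24210 CPM after 7 days alone, against 29660, 28340 and 11000 CPM after 1 day alone. The mitochondrial small ribosomal RNA (mt:srRNA) changed by -1.45, with 8.97, 7.21 and 8.90 CPM after 7 days alone, against 27.9, 21 and 19.6 CPM after 1 day alone and 6.97, 7.33 and 4.22 CPM in the group. It passed in 4 of the 9 fits that leave out 1 library. The large ribosomal RNA, mt:lrRNA, overlapped between the durations, with 13990, 29000 and 29260 CPM after 7 days alone, against 42840, 45000 and 21770 CPM after 1 day alone.

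Turandot stress protein genes were higher after 7 days alone, and so were some storage protein genes. The Turandot genes encode small proteins that the fat body releases into the blood under stress. Of the 8 listed, 5 had enough counts for the test. All 5 rose (100%, against 3.11% of all tested genes), with a median log2 fold change of 2.09. TotM (FBgn0031701, on chromosome 2L from 5329857 to 5330464) had 83.99, 154 and 164 CPM after 7 days alone, against 22.5, 23.5 and 19.2 CPM after 1 day alone and 448, 342 and 442 CPM in the group, a log2 fold change of 2.62 (SE 0.264, adjusted p = 0.00408, edgeR). TotC (FBgn0044812, on chromosome 3R from 20872988 to 20873580) had 756, 741 and 1007 CPM after 7 days alone, against 172, 192 and 192 CPM after 1 day alone and 2000.3, 1670.3 and 1757 CPM in the group, a log2 fold change of 2.17 (SE 0.139, adjusted p = 0.00189, edgeR). In both the 3 conditions did not overlap, with the 7-day libraries between the 1-day and the group libraries. TotA rose by 1.87, TotB by 2.09 and TotX by 0.97. These genes resemble each other in sequence, so reads could have been divided between them. All 5 rose in 8 of the 9 fits that leave out 1 library, and 4 rose without replicate 3 of 7 days alone. TotB did not pass with limma-voom (adjusted p = 0.205).

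Diedel, a secreted protein that damps Imd immune signalling, had 7.71, 14.1 and 11.1 CPM after 7 days alone, against 1.68, 2.29 and 1.35 CPM after 1 day alone and 31.7, 23.4 and 33.9 CPM in the group, a log2 fold change of 2.63 (SE 0.295, adjusted p = 0.00536, edgeR). It showed the same order as TotM and TotC. Of 5 tested genes of larval serum and storage proteins 2 rose (40%, against 3.11% of all tested genes) and none fell (median 0.47). Lsp1alpha (FBgn0002562, on chromosome X from 12490291 to 12492982), a blood storage protein best known from larvae, had 11.8, 21.5 and 18.6 CPM after 7 days alone, against 1.28, 0.986 and 0.928 CPM after 1 day alone and 12.4, 9.77 and 9.99 CPM in the group, a log2 fold change of 4.02 (SE 0.268, adjusted p = 0.00189, edgeR). Its 1-day libraries lay far below all others. Lsp2 had 2098, 2452 and 2071 CPM after 7 days alone, against 1491, 1229 and 1514 CPM after 1 day alone and 1312, 1009.5 and 1186 CPM in the group (log2 fold change 0.65, adjusted p = 0.0421, edgeR). The antisense RNA that overlaps it, asRNA:CR11538, rose by 2.24, and without strand the reads of the pair cannot be told apart. Lsp1beta did not pass, with 108, 166 and 154 CPM after 7 days alone and 99.4, 101 and 108 CPM after 1 day alone. Lsp1gamma and Fbp1, both under 1 CPM in every library, did not pass either, at log2 fold changes of -1.19 (adjusted p = 0.512, edgeR) and 0.14 (adjusted p = 1). Lsp1alpha, Diedel, TotM, TotC, TotA and TotX passed in all 9 fits, while Lsp2 passed in 1 and asRNA:CR11538 in 2. With limma-voom Lsp1alpha (adjusted p = 0.0812), Diedel (0.0775) and asRNA:CR11538 (0.113) did not pass.

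Some antimicrobial peptide genes were lower after 7 days alone. Of 31 tested antimicrobial peptides and bomanins none rose and 4 fell (12.9%, against 1.51% of all tested genes), with a median of -0.36. Drosomycin, encoded by Drs (FBgn0283461, on chromosome 3L from 3369556 to 3369942) and active against fungi, had 22.2, 17.5 and 16.3 CPM after 7 days alone, against 80.4, 153 and 138 CPM after 1 day alone and 14.9, 28.9 and 36.3 CPM in the group, a log2 fold change of -2.73 (SE 0.38, adjusted p = 0.0121, edgeR). The 7-day and group libraries overlapped, and the 1-day libraries were above both and the most variable. The attacin AttD had few reads, 19, 17 and 17 counts after 7 days alone, against 175, 194 and 416 after 1 day alone and 93, 37 and 16 in the group (log2 fold change -4.08, adjusted p = 0.0194, edgeR). So had the cecropin CecB, with 4, 17 and 9 counts after 7 days alone, against 79, 85 and 162 after 1 day alone and 16, 9 and 37 in the group (log2 fold change -3.59, adjusted p = 0.0477, edgeR). The bomanin BomBc1 changed by -1.48. Bomanins, attacins and cecropins each have close relatives, so their reads are uncertain.

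Of 37 genes of Toll and Imd recognition and signalling 4 rose (10.8%) and 1 fell (2.7%), against 3.11% and 1.51% of all tested genes. The recognition protein PGRP-SA fell by 0.52 on the log2 scale, while the protease modSP rose by 0.38, the transcription factor Dif, which overlaps CG15141 on the other strand, by 0.29, and the adaptors Tab2 and Myd88 by 0.23 and 0.21. NimC4, a receptor for dying cells, had 1.05, 0.866 and 0.884 CPM after 7 days alone, against 5.18, 2.94 and 4.11 CPM after 1 day alone and 1.15, 1.67 and 1.37 CPM in the group (log2 fold change -2.12, adjusted p = 0.00784, edgeR). It belongs to another list, of 13 tested genes of haemocytes, melanization and clotting. There 2 genes rose (15.4%) and NimC4 was the 1 that fell (7.69%), against the same 3.11% and 1.51%. With body tissue as a term in the model, 2 antimicrobial genes rose and 11 fell, where 4.49% of all genes were higher and 2.41% lower. With 1 library left out, the antimicrobial genes that fell numbered 0 (without replicate 2 or 3 of 7 days alone) to 3, and 5 rose without replicate 3 of 1 day alone. Toll and Imd genes that rose numbered 0 (without replicate 2 or 3 of 7 days alone) to 7 (without replicate 3 of 1 day alone). Drs passed in 7 of the 9 fits, AttD in 4, BomBc1 in 2 and CecB in 1. With limma-voom AttD (adjusted p = 0.29), CecB (0.153) and NimC4 (0.0555) did not pass.

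**Figure D3:**
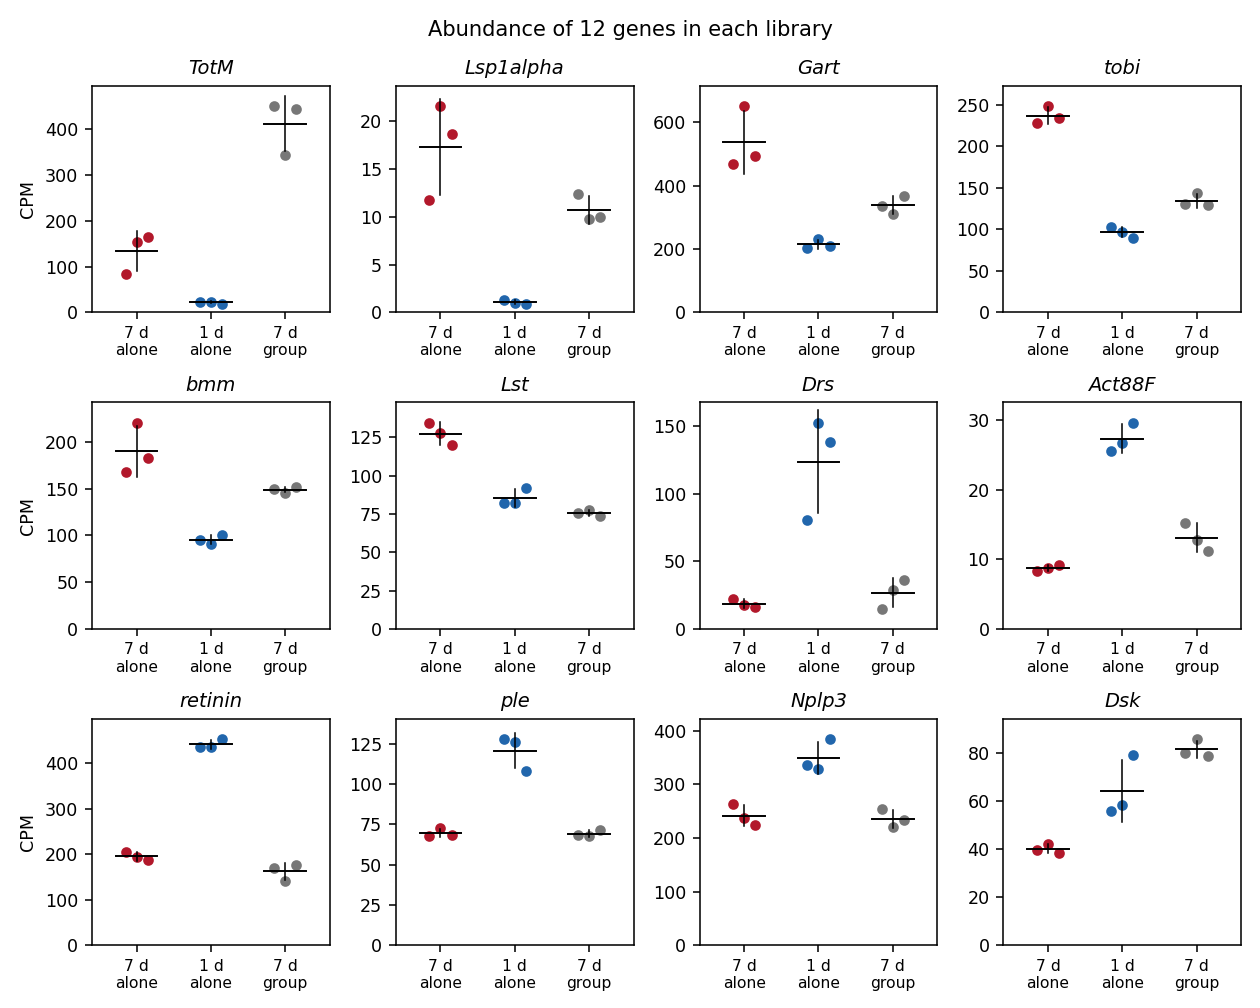
Abundance (CPM, linear axis from 0) of 12 genes in each library after 7 days alone (red), 1 day alone (blue) and 7 days in a group (grey). Horizontal bars are means and vertical bars SD of 3 libraries. TotM lies at 84.0 to 164 CPM after 7 days alone, at 19.2 to 23.5 after 1 day alone and at 342 to 448 in the group, while Act88F, retinin, ple and Drs are highest after 1 day alone.

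Of the lens and cuticle genes that passed, all but 1 were lower after 7 days alone, and most of the cuticle genes did not pass. Of the 3 corneal lens genes 2 fell in the full fit (66.7%, against 1.51% of all tested genes), and 2 also fell without any 1 library. Retinin (retinin, FBgn0040074, on chromosome 3L from 16331933 to 16332789), of the outer lens surface, had 205, 193 and 186 CPM after 7 days alone, against 435, 436 and 452 CPM after 1 day alone and 170.2, 141 and 176 CPM in the group, a log2 fold change of -1.18 (SE 0.0835, adjusted p = 0.00189, edgeR). The lens protein Crys had 4.08, 3.25 and 4.50 CPM after 7 days alone, against 8.16, 9.31 and 9.82 CPM after 1 day alone and 3.15, 4.20 and 3.44 CPM in the group (log2 fold change -1.21, adjusted p = 0.0125, edgeR). For both, every 1-day library was above every other library. Cpr72Ec did not pass, with 59.6, 63.05 and 56.2 CPM after 7 days alone and 55.8, 62.96 and 91.5 CPM after 1 day alone (adjusted p = 0.6, edgeR).

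Of 50 tested structural cuticle proteins none rose and 4 fell (8%), with a median of -0.40. Of 26 genes of chitin and cuticle pigment 1 rose (3.85%) and 3 fell (11.5%). Over all tested genes 3.11% rose and 1.51% fell. Cpr100A had 4.72, 5.48 and 5.15 CPM after 7 days alone, against 10.8, 10.2 and 12.02 CPM after 1 day alone and 6.93, 6.84 and 6.25 CPM in the group (log2 fold change -1.10, adjusted p = 0.00316, edgeR). Cpr47Ee changed by -0.78, Cpr62Bb by -0.58 and Ccp84Ab by -1.40. The chitin deacetylase serp had 6.72, 6.69 and 7.26 CPM after 7 days alone, against 16.9, 14.9 and 17.3 CPM after 1 day alone and 8.10, 9.67 and 8.97 CPM in the group (log2 fold change -1.25, SE 0.0938, adjusted p = 0.00189, edgeR), and the related verm changed by -0.78. Among chitinases Cht2, which overlaps CG13921 on the other strand, fell by 0.73 on the log2 scale and Cht5 rose by 0.57.

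Tyrosine hydroxylase, encoded by ple (FBgn0005626, on chromosome 3L from 6713356 to 6719525), makes the precursor of dopamine in neurons and of cuticle pigment in the epidermis. It had 67.7, 72.4 and 68.2 CPM after 7 days alone, against 128, 126 and 108 CPM after 1 day alone and 68.2, 67.5 and 71.6 CPM in the group, a log2 fold change of -0.80 (SE 0.0669, adjusted p = 0.00281, edgeR), and the 7-day and group libraries overlapped. Pu, which makes the cofactor of tyrosine hydroxylase and eye pigment precursors, changed by -0.37. Both ple and Pu belong to a list of 14 tested genes of dopamine synthesis, transport and receptors. They were the 2 that fell (14.3%), and 2 others rose (14.3%), among them Hn, described above. The shares of all tested genes were 1.51% lower and 3.11% higher. Of 12 tested genes of the extracellular matrix 1 rose (8.33%) and 2 fell (16.7%), against 3.11% and 1.51% of all tested genes. The gene that rose, atk, a leucine-rich repeat protein of sensory organs, had 86.8, 98.8 and 89.5 CPM after 7 days alone, against 36.1, 39.02 and 34.8 CPM after 1 day alone and 31.5, 29.02 and 36.01 CPM in the group (log2 fold change 1.32, SE 0.0916, adjusted p = 0.00189, edgeR). The 7-day libraries were above all others, and the 1-day and group libraries overlapped. The gene atk shares sequence with CG42764 on its own strand and with Uhg8 on the opposite one. The collagen Col4a1 changed by -0.66 and the matrix protease Mmp1, which overlaps Pof on the other strand, by -0.41. Structural cuticle proteins that fell numbered 1 (without replicate 3 of 7 days alone) to 6 (without replicate 3 of 1 day alone), and retinin, Crys, Cpr100A, serp, verm, ple and atk passed in all 9 fits.

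Among hormone genes more fell than rose. Of 44 tested neuropeptide and peptide hormone genes 1 rose (2.27%) and 5 fell (11.4%), with a median of -0.06, against 3.11% and 1.51% of all tested genes. Limostatin, encoded by Lst, is a hormone that lowers insulin release. It had 134, 128 and 119.8 CPM after 7 days alone, against 82.1, 82.3 and 92.3 CPM after 1 day alone and 75.8, 77.7 and 73.9 CPM in the group, a log2 fold change of 0.57 (SE 0.0594, adjusted p = 0.00408, edgeR), with the 7-day libraries above the rest. Drosulfakinin (Dsk, a satiety peptide of the cholecystokinin family) had 39.9, 42.4 and 38.7 CPM after 7 days alone, against 55.8, 58.4 and 79.4 CPM after 1 day alone and 80, 85.9 and 79.1 CPM in the group, a log2 fold change of -0.68 (SE 0.129, adjusted p = 0.0316, edgeR). The 7-day libraries were the lowest, and replicate 3 of 1 day alone reached the level of the group. Nplp3, a neuropeptide-like precursor, changed by -0.53.

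Insulin-like peptide Ilp3, made in brain neurons, had 1.03, 1.30 and 1.27 CPM after 7 days alone, against 2.25, 3.06 and 4.62 CPM after 1 day alone and 1.11, 1.52 and 1.37 CPM in the group (log2 fold change -1.46, adjusted p = 0.0386, edgeR). CNMa changed by -1.24. The cytokine upd2, a fat body signal of the fed state, had few reads: 3, 3 and 5 counts after 7 days alone, against 47, 19 and 16 after 1 day alone and 13, 13 and 10 in the group (log2 fold change -3.08, adjusted p = 0.0279, edgeR). None of 37 neuropeptide receptor genes passed (edgeR; 7 at an unadjusted p under 0.05, 5 called with DESeq2 and 1 with limma-voom). Leaving out 1 library gave 0 (without replicate 2 of 7 days alone) to 3 neuropeptide genes that rose and 0 (without replicate 2 or 3 of 7 days alone) to 5 that fell. Lst passed in 8 of the 9 fits, CNMa in 7, Nplp3 in 6, Dsk and Ilp3 in 2 and upd2 in 1. With limma-voom Ilp3 (adjusted p = 0.108) and upd2 (0.173) did not pass.

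Downstream of insulin, genes of the fasting and FOXO response moved both ways, where 3.11% of all tested genes rose and 1.51% fell. Of 14 tested 3 rose (21.4%), which were bmm, Lip4 and Pepck2 described above, and 2 fell (14.3%). Those were Thor, a repressor of translation that FOXO induces, with 193, 161 and 177 CPM after 7 days alone, against 226, 244 and 284 CPM after 1 day alone and 219, 204 and 206 CPM in the group (log2 fold change -0.51, adjusted p = 0.0316, edgeR), and the sugar-response factor sug at -0.67, which shares exon sequence with CG13319. Of 20 insulin and TOR genes the sugar sensor Mondo rose by 0.38 and crc by 0.24 (10% rose), next to the falls of Thor and sug (10% fell). Thor passed in 3 of the 9 fits that leave out 1 library, Mondo in 2 and sug and crc in 1. Of the FOXO genes that rose, bmm passed in 9, Pepck2 in 8 and Lip4 in 3. With only the 6 libraries compared, 0 genes of either list passed. The feeding-related gene fit did not pass, with 58.9, 61.2 and 56.03 CPM after 7 days alone, against 90.7, 56.4 and 65.7 CPM after 1 day alone and 22.5, 19.03 and 19.9 CPM in the group (adjusted p = 0.486, edgeR). It overlaps CG31465 on the other strand and asRNA:CR45046 on its own. Obp99b, an odorant-binding protein of the head fat body, rose by 0.70 (adjusted p = 0.00745, edgeR).

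A few clock, synapse and photoreceptor genes passed, with small changes. Of 12 clock genes 1 rose and 1 fell (8.33% each, against 3.11% and 1.51% of all tested genes). The gene tim had 174, 159 and 163 CPM after 7 days alone, against 139.8, 125 and 124 CPM after 1 day alone and 164, 162 and 171 CPM in the group (log2 fold change 0.35, adjusted p = 0.017, edgeR). The gene per, which overlaps dyw on the other strand, had 33.1, 33.6 and 30.5 CPM after 7 days alone, against 38.3, 38.1 and 38.7 CPM after 1 day alone and 35.3, 33.3 and 33.98 CPM in the group (log2 fold change -0.24, adjusted p = 0.0331, edgeR). Their proteins act as partners, yet their transcripts differed in opposite directions, and tim passed in 1 and per in 5 of the 9 fits. Of 20 synaptic genes 3 fell (15%, against 1.51% of all genes) and none rose: the GABA-making enzyme Gad1 at -0.32, the vesicle loader of GABA, VGAT, at -0.24 and Rop, of vesicle fusion, at -0.22. Synaptic genes that fell numbered 10 without replicate 3 of 1 day alone, and 0 without replicate 3 of 7 days alone, replicate 2 of 1 day alone or replicate 2 of the group.

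Of 35 genes of the photoreceptor light response 2 rose (5.71%, against 3.11% of all genes) and none fell (median 0.12). The gene trpl, of a channel of the light response, had 2175, 2286 and 2129 CPM after 7 days alone, against 1491, 1615 and 1552 CPM after 1 day alone and 2508, 2441 and 2551 CPM in the group (log2 fold change 0.50, adjusted p = 0.0132, edgeR), and the retinoid-binding protein pinta rose by 0.40. The 7-day libraries lay between the 1-day and the group libraries in both. With 1 library left out 0 to 7 of these genes rose, 7 without replicate 3 of 1 day alone. None of 9 genes induced by neuronal activity passed (edgeR; 3 at an unadjusted p under 0.05, 3 with DESeq2 and 0 with limma-voom). Hr38, which overlaps CG2617 on the other strand, had 8.34, 9.91 and 10 CPM after 7 days alone and 11.5, 32.5 and 8.70 CPM after 1 day alone, where replicate 2 alone was high.

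Among enzymes that modify foreign compounds and hormones most genes did not pass, and those that did were mostly higher after 7 days alone. Of 80 tested cytochrome P450 genes 17 rose (21.2%) and 3 fell (3.75%), with a median log2 fold change of 0.18. Of 29 UDP-glycosyltransferases 4 rose (13.8%, median 0.27) and of 34 glutathione S-transferases 4 rose (11.8%, median 0.10). Over all tested genes 3.11% rose and 1.51% fell, so that no fall in the latter 2 lists is little different from that share. Cyp4e3 had 77.6, 90.5 and 95.3 CPM after 7 days alone, against 45.7, 48.7 and 49.5 CPM after 1 day alone and 81.6, 85.6 and 80.1 CPM in the group (log2 fold change 0.87, adjusted p = 0.00304, edgeR). Cyp309a1 had 46.7, 68.6 and 53.02 CPM after 7 days alone, against 20.7, 22.04 and 23.9 CPM after 1 day alone and 32.8, 33.7 and 33.04 CPM in the group (log2 fold change 1.34, adjusted p = 0.00408, edgeR), with the 7-day libraries above all others. Cyp6g1, known from DDT resistance, rose by 0.57, and Cyp6a23, Cyp9b2 and Cyp6a22 by 0.62, 0.57 and 0.57. P450 genes lie in clusters of related copies, and Cyp6g1 overlaps Cyp6g2 on the other strand.

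Ugt35C1 rose by 0.59 and GstS1 by 0.65. Of 14 antioxidant genes 3 rose (21.4%) and 1 fell (7.14%), against 3.11% and 1.51% of all tested genes. The peroxide-splitting catalase Cat rose by 0.37 and the peroxiredoxins Prx6c and Prx6b by 0.45 and 0.68, and the extracellular superoxide dismutase Sod3 fell by 0.35 on the log2 scale. Prx6c had 78.4, 81.5 and 77.5 CPM after 7 days alone, against 59.1, 56.1 and 58.8 CPM after 1 day alone and 42.1, 37.4 and 44.5 CPM in the group, with the group libraries lowest. Leaving out 1 library gave 3 (without replicate 2 of 7 days alone) to 20 (without replicate 3 of 1 day alone) rising P450 genes, 0 to 6 UDP-glycosyltransferases, 0 to 6 glutathione S-transferases and 0 to 4 antioxidant genes. Cyp6a23, Cyp4e3 and Cyp309a1 passed in all 9 fits.

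Several of the clearest differences lay outside these groups. CG12256, a predicted serine protease that overlaps asRNA:CR43477 on the other strand, had 38.2, 33.2 and 35.1 CPM after 7 days alone, against 9.54, 10.8 and 11.5 CPM after 1 day alone and 36.8, 38.3 and 33.9 CPM in the group (log2 fold change 1.74, SE 0.0903, adjusted p = 0.000743, edgeR). CG13796 had 29.2, 32.5 and 30.1 CPM after 7 days alone, against 14.8, 15.4 and 15.6 CPM after 1 day alone and 31.5, 30.03 and 31.5 CPM in the group (log2 fold change 1.00, SE 0.0525, adjusted p = 0.000743, edgeR). In both, the 7-day and group libraries overlapped and the 1-day libraries were lower. The transporter gene Mdr50 rose by 1.87, the pheromone-related secreted protein gene CheA87a, which overlaps Lip3 on the other strand, by 1.53 and cDIP, a leucine-rich repeat gene, by 0.76.

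Among falls, CG11458 had 0.438, 0.541 and 0.366 CPM after 7 days alone, against 7.86, 7.55 and 8.54 CPM after 1 day alone and 0.810, 1.01 and 0.543 CPM in the group (log2 fold change -4.15, SE 0.286, adjusted p = 0.00189, edgeR). CG4269, which overlaps CG4294 on the other strand, had 1.24, 0.931 and 1.90 CPM after 7 days alone, against 22.8, 12.7 and 22.1 CPM after 1 day alone and 1.71, 2.98 and 2.45 CPM in the group (log2 fold change -3.82, adjusted p = 0.00408, edgeR). The noncoding RNA lncRNA:CR32368 had 3.71, 3.70 and 4.42 CPM after 7 days alone, against 55.97, 22.04 and 62.1 CPM after 1 day alone and 7.42, 8.49 and 7.18 CPM in the group (log2 fold change -3.56, adjusted p = 0.00435, edgeR). These 3 were high after 1 day alone in every library, with replicate 2 the lowest of the 1-day libraries. Ets21C, a stress-induced transcription factor that overlaps nAChRbeta3 on the other strand, changed by -1.74, CG4000, which overlaps asRNA:CR45024, by -1.43, CG43402 by -1.47 and CG43448 by -1.19.

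Other groups showed no called gene. Among 81 cytosolic ribosomal proteins none passed (edgeR; 1 at an unadjusted p under 0.05, 1 with DESeq2, 0 with limma-voom), and their median was -0.07. Among 70 mitochondrial ribosomal proteins none passed (10 at an unadjusted p under 0.05, 6 with DESeq2, 0 with limma-voom), with a median of -0.19. None of 17 serotonin and octopamine genes passed (6 at an unadjusted p under 0.05, 6 with DESeq2, 2 with limma-voom), nor of 13 odorant receptors (0 by any of these), 10 sleep genes (1, 1 and 0), 9 juvenile hormone genes (1, 0 and 0), 6 neuronal markers (0, 0 and 0) and 6 glial markers (1, 1 and 0). A p that misses the threshold does not show that these genes were equal.

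**Figure D4:**
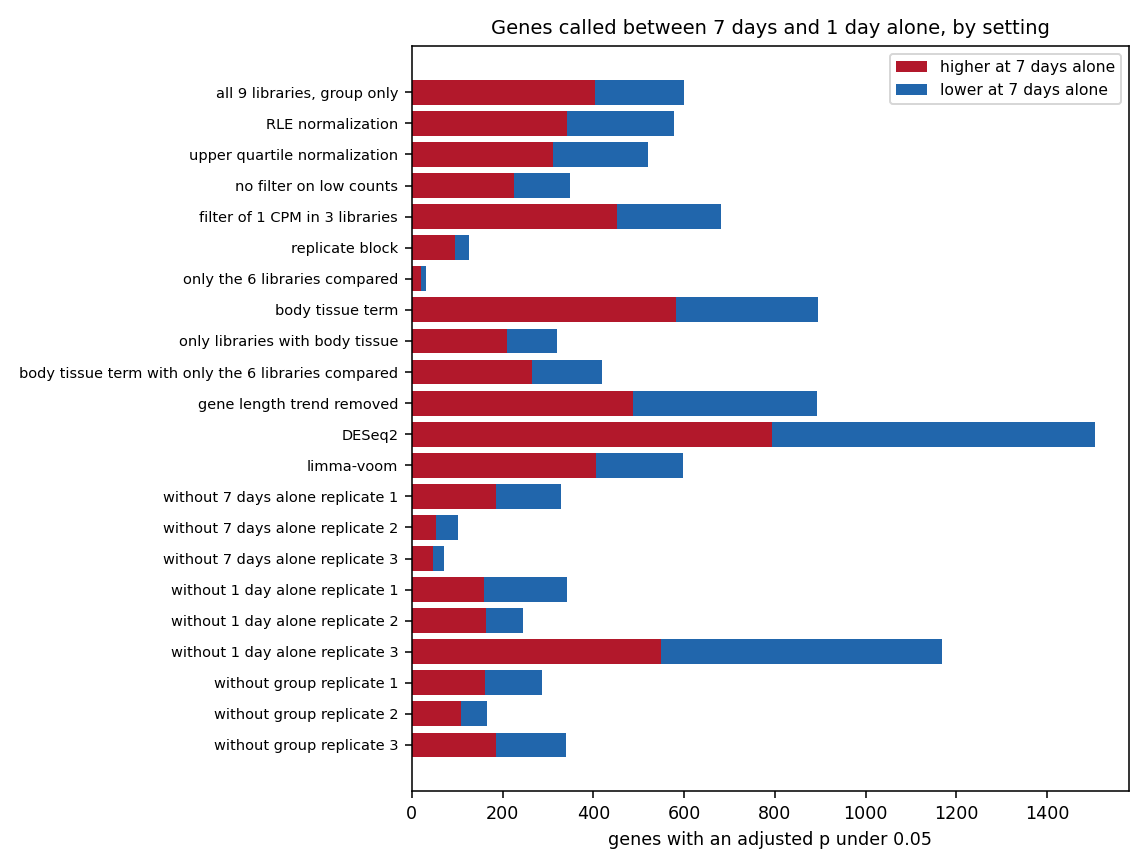
Number of genes with an adjusted p under 0.05 (horizontal axis) in the fit of all 9 libraries and in 21 alternatives, split into higher (red) and lower (blue) at 7 days alone. The fit of only the libraries without body tissue is not drawn. The count was 599 with all 9 libraries and the group as the only term, 32 with only the 6 libraries compared, and 72 to 1167 with 1 library left out.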

How the data were processed

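RNA of whole heads was sequenced from libraries made with a stranded mRNA kit, per the labels' protocols. The tools were bcl2fastq 2.20 for demultiplexing, STAR 2.4.2a for alignment and featureCounts for counting, per the submitters' processing notes. Not given in the sources used here are the build, the annotation, the version of featureCounts and how it treated strand and reads with several matches. The deposited values are raw counts of reads for each gene, 1 column per library, with no scaling by the authors and no pooled replicates. Symbols were matched by gene identifier for 17288 of 17490 genes. Coordinates are those of the deposited table, in which 17144 genes had the same span as in the BDGP6 annotation. An exon of the opposite strand overlapped 4520 of the genes.

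All 9 libraries were fitted together with edgeR 4.0.16 in R 4.3.3 (filterByExpr, TMM, quasi-likelihood test, group as the only term, two-sided), with Benjamini-Hochberg adjustment over all 12963 tested genes. A gene was called, and is said to have risen, fallen or passed, at an adjusted p under 0.05. SE was taken as the size of the log2 fold change over the square root of F. Totals of 39698143 to 53514747 counts mean that a count of 0 allows 0.0561 to 0.0756 CPM (3 counts), for counting error only. Alternatives were RLE and upper quartile normalization, other filters, DESeq2 1.42.0, limma-voom (limma 3.58.1), a replicate block, only the 6 libraries, a term for body tissue (gut and male tract markers over 50 CPM), only libraries with or without it, removal of a length trend, and leaving out each library. Figures were drawn with matplotlib 3.10.9.

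Named were the 12 largest rises and falls among called genes with at least 5 CPM on average and no overlap of the libraries, the 10 called genes with the lowest p, up to 6 called members of each of 64 gene lists (all tested members of lists of 8 or fewer), and Lst, Dsk, fit, to, Hr38, Thor, per, tim, ple, bmm, Act88F, TotM, Drs and Lsp1alpha whatever their values; not all are printed. Members, lists and tests were chosen with earlier results of these data known. One gene also expressed in the antenna, Est-6, was taken off the male tract list after its values were seen.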

Additional observations from a re-analysis of the deposited data

How the results depend on the processing

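The count of called genes was 599 (403 higher and 196 lower after 7 days alone). It was within 1.5 times of this with RLE normalization (577), upper quartile normalization (520), a filter of 1 CPM in 3 libraries (682) and limma-voom (597). Without a filter on low counts 348 genes passed (226 higher, 122 lower), and with DESeq2 1505 (793 higher, 712 lower). A term for body tissue gave 895 genes (582 higher, 313 lower), and removal of the length trend 893 (488 higher, 405 lower). Only the libraries with body tissue gave 320 genes (209 higher, 111 lower). Only those without it gave 4718 (2432 higher, 2286 lower), but this sets 1 library against 1, with the spread taken from the group libraries. Only the 6 libraries compared gave 32 genes (21 higher, 11 lower), and 420 (264 higher, 156 lower) with a body tissue term as well, an alternative chosen after seeing the data. Leaving out 1 library gave 72 to 1167 genes (46 to 548 higher, 26 to 619 lower). More called genes were lower than higher in 2 of these fits, those without replicate 1 or 3 of 1 day alone. The fewest were without replicate 3 of 7 days alone and the most without replicate 3 of 1 day alone. The cause of these shifts was not tested.

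With a replicate block 126 genes passed (96 higher, 30 lower). Deviations of same-numbered libraries of 7 days and 1 day alone correlated at -0.093, 0.041 and -0.23 over 9986 genes. No 7-day library correlated best with the 1-day library of its own number. With so few libraries, and the group libraries left out of this check, it cannot decide whether the numbers pair the libraries. Of 144 called genes described, 22 remained called with only the 6 libraries, 54 with the block, and 95 to 144 under the other settings that leave out no single library; none changed direction. Among genes described that did not pass, 4 changed sign. Leaving out 1 library, Yp1 ran from -4.68 to 1.23 and Yp2 from -4.61 to 0.65 (log2), the highest without replicate 1 of 1 day alone. With only the libraries without body tissue Yp1 was 1.21, Yp2 0.31 and Hr38 0.17. Fbp1 was -0.21 with only the libraries with body tissue and ran from -0.19 to 0.45 leaving out 1 library. For genes listed near 1 CPM or lower, depth limits the precision.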

Other observations

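Further called genes were chosen for description after their values were seen. Galactokinase (Galk), which phosphorylates galactose, had 448, 502 and 437 CPM after 7 days alone, against 257, 243 and 277 CPM after 1 day alone and 413, 401 and 424 CPM in the group (log2 fold change 0.84, adjusted p = 0.00266, edgeR). It overlaps CG13314 on the other strand. Its 1-day libraries lay below all others. The alanine-glyoxylate aminotransferase gene Agxt changed by 0.85, the branched-chain aminotransferase gene Bcat by 0.72 and the sorbitol dehydrogenase gene Sodh1 by 0.92.

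Immune genes that fell also included Sting, a sensor of cyclic dinucleotides that overlaps Orc6 on the other strand, with 18, 19.4 and 17.5 CPM after 7 days alone, against 40.03, 24.03 and 38.7 CPM after 1 day alone and 20.8, 19.4 and 20.4 CPM in the group (log2 fold change -0.90, adjusted p = 0.0369, edgeR). Srg1, a gene known to be induced through Sting and overlapping CG7016 on the other strand, had 7.08, 9.61 and 6.68 CPM after 7 days alone, against 18.05, 13.5 and 20.2 CPM after 1 day alone and 4.75, 4.54 and 4.18 CPM in the group (log2 fold change -1.15, adjusted p = 0.0192, edgeR). For Sting and Srg1, replicate 2 was the lowest of the 1-day libraries. The noncoding RNA lncRNA:roX2 changed by -0.54.

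Yolk protein genes were high in a single library. Yp1 had 9.33, 9.35 and 6.79 CPM after 7 days alone, against 419, 2.86 and 3.99 CPM after 1 day alone and 7.52, 21.2 and 10.5 CPM in the group. Yp2 had 7.48, 6.34 and 5.80 CPM after 7 days alone, against 309, 2.86 and 5.06 CPM after 1 day alone and 5.61, 11.8 and 7.22 CPM in the group. In both only replicate 1 of 1 day alone stood out, and neither gene passed between the durations (adjusted p = 0.309 and 0.272, edgeR).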
